A study of Zea mays subsp. mays with 8 samples.

Results

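Transcription start sites of maize (Zea mays subsp. mays) seedling shoots were compared between 2 sets of start-site clusters, named Mo17_S and B73_S in the files. A cluster is a stretch of neighbouring start sites on 1 strand. All clusters carrying either name were taken, which gave 42755 clusters of the 75681 in the files, 22875 in Mo17_S and 19880 in B73_S. The other clusters belong to the root sets Mo17_R and B73_R, which by name come from the other tissue and serve below as a second readout. Shoots and roots came from untreated 14-day-old wild-type seedlings, grown at 27 °C in the light (16 h) and 21 °C in the dark (8 h), and 5 seedlings were pooled per library. The labels give 2 libraries for each line and tissue, and they name the lines A632 and B73. The files name the line other than B73 Mo17, which is in none of the sample labels. All of these are inbred maize lines. Which line gave the Mo17-named sets is not settled by the sources used here, so the sets keep the names in the files. Shoot libraries of both lines in the labels were amplified for 14 PCR cycles, as were A632 root libraries, against 16 cycles for B73 root libraries.

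The files hold 1 pooled value per cluster and set and no value per library. The spread between replicates could therefore not be measured, no difference below has a replicate check, and intervals cover counting only. A cluster missing from a set was not listed there, which does not show that it was silent. The genome build of the positions is not stated in any source used here. No gene goes with any cluster, and start sites are named by position.

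RNA polymerase II begins transcription within the core promoter, where general transcription factors assemble on short elements such as the TATA box and the initiator around the first transcribed base. Sharp promoters begin nearly all transcripts at 1 or a few neighbouring bases, while broad promoters spread them over many. Cap analysis of gene expression (CAGE), the assay used here, selects transcripts by the cap at the 5′ end and reads a short tag there. Maize inbred lines are known to differ from each other in single bases, in transposon insertions and in the presence of whole stretches of the genome.

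Both shoot sets had nearly the same layout, and Mo17_S was the deeper of the pair. The summed normalized signal, which the authors scaled to a power law, was 602151 in Mo17_S and 509605 in B73_S. Behind the dominant (strongest) sites of the clusters stood 3409185 tags in Mo17_S and 2394924 in B73_S, as recovered from the normalized values. The normalized values went with tag counts raised to the power of 0.877 in Mo17_S and 0.888 in B73_S. Each set lay on all 10 chromosomes, with the share per chromosome between 7.12% (chromosome 8) and 16.4% (chromosome 1) in Mo17_S, and between 7.26% and 16.2% on the same chromosomes in B73_S. The plus strand held 50.9% of clusters in each set. The 100 strongest clusters held 23.7% of the signal in Mo17_S and 24.5% in B73_S.

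The same base led both sets. Sites are written below as chromosome, position and strand. The dominant site chr4:1079094:+ had a signal of 14627 in Mo17_S and 8177 in B73_S, with 175051 tags in Mo17_S and 55144 in B73_S. Next in both came chr2:18759495:-, with a signal of 7341 in Mo17_S and 4743 in B73_S. These sites were also the strongest in both root sets, and together they took 8.63% of the recovered tags in Mo17_S and 4.47% in B73_S. The order then differed. In Mo17_S the next were chr5:85425497:+ (signal 4149 in Mo17_S and 2076 in B73_S), chr3:192096961:+ (3304 in Mo17_S and 2107 in B73_S) and chr5:178133123:+ (2701 in Mo17_S and 1538 in B73_S). These 3 sites were strong in both shoot sets and weak in both root sets, where their highest signal was 33.5.

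The third place in B73_S was held by the cluster at chr1:213701400:-. Mo17_S had 454 tags there, 1 base away, and a signal of 124.6, against 38133 tags and a signal of 3954 in B73_S. At chr9:103448299:- the signal was 345.7 in Mo17_S and 2542 in B73_S. The fifth cluster of B73_S, chr10:10200807:-, had nearly the same signal in each set, 2580 in Mo17_S and 2465 in B73_S.

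Most start regions were listed in both sets. Of the Mo17_S clusters, 16226 (70.9%, 95% Wilson interval 70.3 to 71.5) shared 1 bp or more of the same strand with a B73_S cluster. Of the B73_S clusters, 16054 (80.8%, 80.2 to 81.3) did so with a Mo17_S cluster. Clusters without a partner were mostly weak. The 6649 in Mo17_S held 6.32% of its signal, with a median signal of 3.80 against 11.3 for partnered clusters. The 3826 in B73_S held 6.08%, with a median of 4.14 against 9.09. From a signal of 100 upward, 98.8% of 852 Mo17_S clusters and 97.3% of 691 B73_S clusters had a partner. Between 2 and 5 the shares were 42.3% of 6695 in Mo17_S and 65.3% of 6258 in B73_S. With an overlap of at least 50% of both clusters, 47.0% of Mo17_S and 53.9% of B73_S clusters had a partner.

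Clusters listed in 1 shoot set were found in the root set of the same name more often than in the other root set. The weakest clusters cannot be used for this, since their listing went with the root set of the same name. Below a signal of 1, 97.6% of 246 Mo17_S clusters overlapped Mo17_R and 99.1% of 116 B73_S clusters overlapped B73_R, against 57.0% of Mo17_S and 47.2% of B73_S clusters at signals from 2 to 5. Over all clusters without a partner, weak ones included, 61.1% in Mo17_S overlapped a Mo17_R cluster and 12.3% a B73_R cluster, and in B73_S 11.8% overlapped a Mo17_R cluster and 50.4% a B73_R cluster. With a signal of at least 5, 2035 Mo17_S clusters had no partner in B73_S. Of these, 65.7% (95% Wilson interval 63.7 to 67.8) overlapped a Mo17_R cluster and 11.9% (10.6 to 13.4) a B73_R cluster. The 1481 such B73_S clusters gave the reverse, with 9.25% (7.88 to 10.8) listed in Mo17_R and 65.8% (63.3 to 68.1) in B73_R. Partnered Mo17_S clusters of that strength showed no such split, with 79.9% listed in Mo17_R and 73.1% in B73_R. Partnered B73_S clusters had 80.3% in Mo17_R and 75.7% in B73_R. The cutoff of 5 was on the shoot signal alone, and both root sets listed clusters with as few as 1 tag at the dominant site. Whether shoot and root clusters of a name were listed jointly, and the part of this in the split, was not tested. Clusters without a partner were also more often sharp, which means that at most 10 bp separated the 10th and 90th percentiles of their signal. At a signal of 5 or more, 61.4% of Mo17_S clusters without a partner and 47.2% of those with one were sharp, and in B73_S 56.2% without and 47.1% with one. A narrow cluster has fewer bases in which to overlap another, and the part of this in the shares was not tested. Over B73_S clusters of any signal, 62.7% without and 51.4% with a partner were sharp. Inside dense runs, described further on, and again at any signal, the order in B73_S was the opposite. There 89.7% without and 93.3% with a partner were sharp.

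**Figure D1:**
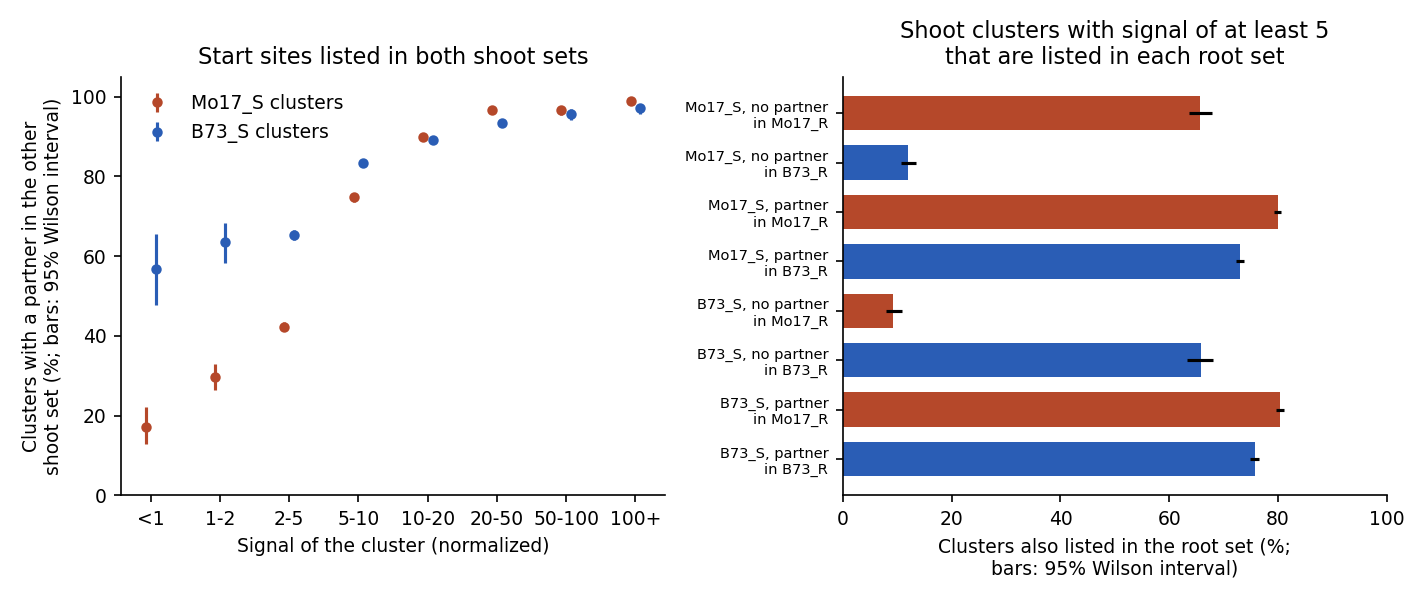
Left, share of clusters of each shoot set that overlap a cluster of the other shoot set, by signal of the cluster, with 95% Wilson intervals; the share climbs to 98.8% in Mo17_S and 97.3% in B73_S at 100 and above. Right, share of shoot clusters with a signal of 5 or more that are listed in each root set, with no cutoff on root signal. For clusters without a shoot partner it is 65.7% for Mo17_S and 65.8% for B73_S in the root set of their own name. In the other root set it is 11.9% for Mo17_S and 9.25% for B73_S. The part of joint listing of shoot and root clusters of a name was not tested.

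Few strong start sites lacked a partner, 10 in Mo17_S and 19 in B73_S at a signal of at least 100. The strongest in Mo17_S lay at chr7:44815986:-, with 3355 tags in Mo17_S, no cluster in B73_S, 4324 tags in Mo17_R and no cluster in B73_R. The next 3 were chr7:166088153:+ (3816 tags), chr2:133398336:+ (3635 tags) and chr7:90296207:+ (3680 tags). None of these 3 was listed in any of the other 3 sets, and the dominant base took between 93.3% and 96.6% of their signal. Their nearest B73_S sites on the same strand were 73013, 78572 and 412605 bp away. The fifth, at chr3:193136849:-, had 1855 tags in Mo17_S and 34 in Mo17_R.

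Among B73_S clusters without a partner the strongest lay at chr7:2744993:+, with 1864 tags in B73_S and 932 in B73_R, and it was listed in neither Mo17-named set. It was followed by chr9:76789245:- (2169 tags) and chr4:21158677:+ (1099 tags, and 1702 in B73_R). Both also lacked a cluster in Mo17_R, but Mo17_S had a site 433 bp from the one on chromosome 9 and 142 bp from the one on chromosome 4. The site at chr7:172645011:+ did not keep to a name, with 2642 tags in B73_S and 1955 in Mo17_R and no cluster in Mo17_S or B73_R. The fifth, at chr2:46790133:-, had 1751 tags in B73_S and was in no root set, with a Mo17_S site 232 bp away. Across all clusters without a partner, 35.4% in Mo17_S and 32.1% in B73_S had a site of the other set within 500 bp on the same strand. Outside dense runs these shares were 19.2% in Mo17_S and 18.5% in B73_S.

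Clusters without a partner were spread over the genome. In 202 windows of 10 Mb holding at least 50 clusters of the 2 sets together, the share without a partner had a median of 24.0% and ran from 15.4% to 40.8%. The highest shares were in the windows starting at 110 Mb on chromosome 2 (42 of 103 clusters, 95% Wilson interval 31.8 to 50.4), 140 Mb on chromosome 4 (39.8%), 80 Mb on chromosome 7 (39.7%), 120 Mb on chromosome 1 (37.5%) and 110 Mb on chromosome 7 (35.7%). The lowest were at 170 Mb on chromosome 8 (37 of 241 clusters, 11.3 to 20.4), 60 Mb and 90 Mb on chromosome 3 (15.9% and 16.1%), 40 Mb on chromosome 4 (16.2%) and 60 Mb on chromosome 5 (16.3%). The interval lay wholly above the overall share of 24.5% in 24 windows and wholly below it in 13. Among 202 intervals of 95% some miss the overall share by counting alone, and differences between windows were not tested.

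Some neighbours lacked a partner together, though most such clusters stood alone. Outside dense runs and from a signal of 5 upward, 1717 of 12118 in Mo17_S and 1339 of 10659 in B73_S had none. Unbroken stretches of these held 1 cluster in 1228 cases in Mo17_S and 880 in B73_S. They held 2 clusters in 183 cases in Mo17_S and 149 in B73_S. How many longer stretches unrelated clusters would give was not tested. The longest unbroken stretch of such clusters in B73_S held 9, between 138488983 and 139504119 on chromosome 4. There 1 of the 9 was listed in B73_R and 0 in Mo17_R, and Mo17_S had 1 cluster in the stretch. In Mo17_S the longest stretches held 5, between 25419912 and 25733581 on chromosome 5 and between 242450834 and 243456650 on chromosome 1. The stretch on chromosome 5 had 2 of its 5 clusters listed in Mo17_R and the stretch on chromosome 1 had 4 of 5, with 0 in B73_R for both, and B73_S had 2 clusters within each stretch. These stretches were picked after the clusters had been seen.

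The level of shared start regions was close in most cases. Overlapping clusters formed 15161 pairs in which each had exactly 1 partner, and these were compared on log2(signal + 1), a scale that shrinks differences between weak clusters. In place of a test, a pair was called when it differed at least 4-fold and its higher signal was 1 or more. On these terms 264 pairs (1.74%) were higher in Mo17_S, 210 (1.39%) were higher in B73_S and 96.9% were neither. The median difference of Mo17_S minus B73_S was 0.29 on the log2 scale, with a 95% order-statistic interval of 0.27 to 0.30, and it was -0.0022 on recovered tags per 1000000 of each set. After the median of the signal was taken off, 136 pairs were higher in Mo17_S and 297 in B73_S. On tags per 1000000 311 (2.05%) were higher in Mo17_S and 416 (2.74%) in B73_S, so the share of called pairs that were higher in Mo17_S was 42.8% on tags and 55.7% on signal. On both scales at once 171 were higher in Mo17_S and 182 in B73_S. Spearman's rho of the signals over pairs was 0.769, a description over start regions that share their libraries.

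**Figure D2:**
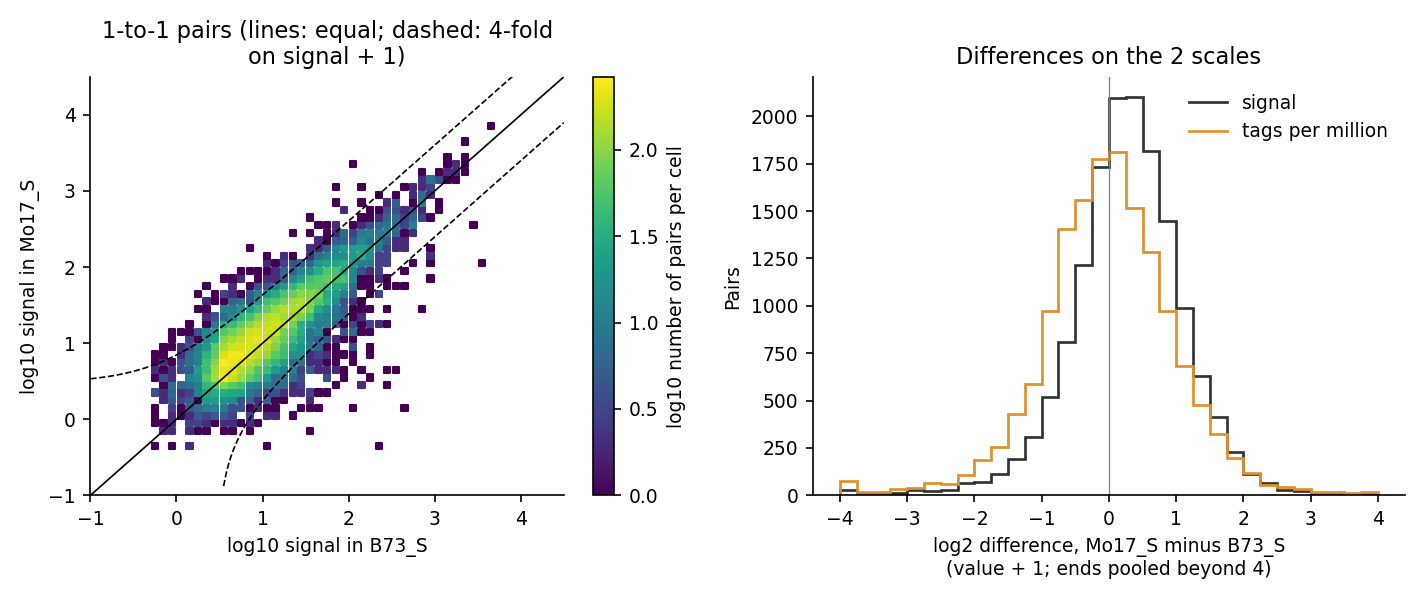
Left, log10 signal of the 15161 pairs in Mo17_S against B73_S, coloured by the number of pairs per cell; the solid line marks equal signal and dashed lines 4-fold on signal + 1. Right, number of pairs by log2 difference of Mo17_S minus B73_S on signal and on recovered tags per 1000000; the median is 0.29 on signal and -0.0022 on tags.

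At the top of the pairs higher in Mo17_S stood a sharp start site on chromosome 1, minus strand. Its dominant base was 22438534 in Mo17_S, with 29792 tags and 92.5% of a signal of 2203, and 22438539 in B73_S, with 532 tags and 63.9% of a signal of 109.5. The log2 difference was 4.32, and for the set's total the dominant site had 39.3 times as many tags in Mo17_S (95% exact binomial interval 36.1 to 42.9). The root sets used the same bases as their shoot namesakes, 22438534 in Mo17_R with 13555 tags and 22438539 in B73_R with 214. Its order against the next pair depended on the scale, with 4.33 here and 4.79 there at a pseudocount of 0.1. That pair, on chromosome 2, minus strand, had its dominant site at 231539592 in Mo17_S, with 289 tags, and at 231539616 in B73_S, with 5 tags, and a log2 difference of 4.32. After it came chr5:184744839:+ (938 tags in Mo17_S and 23 in B73_S, log2 difference 4.29). They were followed by chr8:131061865:- (148 tags in Mo17_S and 6 in B73_S, 4.11) and chr5:2176112:+ (353 tags in Mo17_S and 10 in B73_S, 3.98). In roots, too, all 5 of these had the higher signal in the Mo17-named set.

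Among pairs, differences in the other direction reached further. At chr1:46694014:- the signal was 1.46 in Mo17_S and 416.1 in B73_S, a log2 difference of -7.41. The same base dominated in both, with 4 tags in Mo17_S and 3270 in B73_S, or 1164 times as many in B73_S for the set's total (95% exact binomial interval 454.1 to 4274). On chromosome 9, plus strand, the dominant sites were 138678344 in Mo17_S with 1 tag and 138678372 in B73_S with 629, and the log2 difference was -7.22. The root sets had the same order there, with 11 tags in Mo17_R and 2020 in B73_R. The Mo17_S signals of these 2 pairs, 1.46 and 0.49, are at levels where clusters were listed mostly with a Mo17_R cluster. Such a cluster was present for 96.1% of Mo17_S clusters at signals from 1 to 2 and for 97.6% below 1. A site listed in 1 shoot set alone forms no pair, and the part of this in the reach was not tested. The next were chr2:209957236:- (30 tags in Mo17_S and 3036 in B73_S, -5.99), chr10:146789926:- (6 tags in Mo17_S and 2281 in B73_S, -5.95) and chr5:210155700:- (14 tags in Mo17_S and 2169 in B73_S, -5.63), each placed by its B73_S site. The last had no cluster in Mo17_R and 43 tags in B73_R. These pairs were picked for extreme values, and the intervals leave that out.

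Pairs that differed in level also differed more often in the base used. The dominant site was the same in 52.7% of the pairs higher in Mo17_S and in 24.3% of those higher in B73_S, against 68.6% of all pairs. The weaker side of such pairs had few tags, with medians of 130.5 tags in Mo17_S and 16 in B73_S for pairs higher in Mo17_S, and of 18 in Mo17_S and 166 in B73_S for pairs higher in B73_S. The part of tag depth in the lower share was not tested.

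The root sets differed in the same direction by their medians at called pairs. They were not used in calling pairs, but weak shoot clusters were listed mostly with a root cluster of the same name, so root sets bear on which weak-sided pairs exist. The weaker shoot signal was below 2 in 24 of the 182 pairs higher in Mo17_S described here (13.2%) and in 26 of the 164 higher in B73_S (15.9%). Over all 9773 pairs followed in roots it was below 2 in 397 (4.06%). In 9773 pairs both shoot clusters overlapped 1 root cluster of their own name and these root clusters overlapped each other. Over all of them the median root difference of Mo17_R minus B73_R was 0.73 on log2(signal + 1). It was 1.61 (95% order-statistic interval 1.29 to 1.87) in the 182 pairs higher in Mo17_S and -1.84 (-2.41 to -1.47) in the 164 pairs higher in B73_S. At least 4-fold higher in Mo17_R were 68 of the 182 (37.4%), against 10.1% of all 9773, and 0 were at least 4-fold higher in B73_R. Of the 164, 79 (48.2%) were at least 4-fold higher in B73_R, against 1.8% of all, and 4 were higher in Mo17_R. Where both shoot signals were 5 or more the medians were 1.85 (1.18 to 2.43) in 85 pairs higher in Mo17_S and -2.31 (-2.74 to -1.40) in 73 pairs higher in B73_S, against 0.75 in all 7219 pairs of that strength.

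On tags per 1000000, with shoot calls on tags as well, the overall median in roots was -0.05. The medians were 1.16 in 228 pairs higher in Mo17_S and -1.72 in 328 pairs higher in B73_S. On that scale 60 of the 228 were called higher in Mo17_R (4.48% of all pairs were) and 5 in B73_R. Of the 328, 152 were called higher in B73_R (5.14% of all pairs were) and 16 in Mo17_R. B73 root libraries had 16 PCR cycles and the other libraries 14, and the part of this in the root values was not tested.

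**Figure D3:**
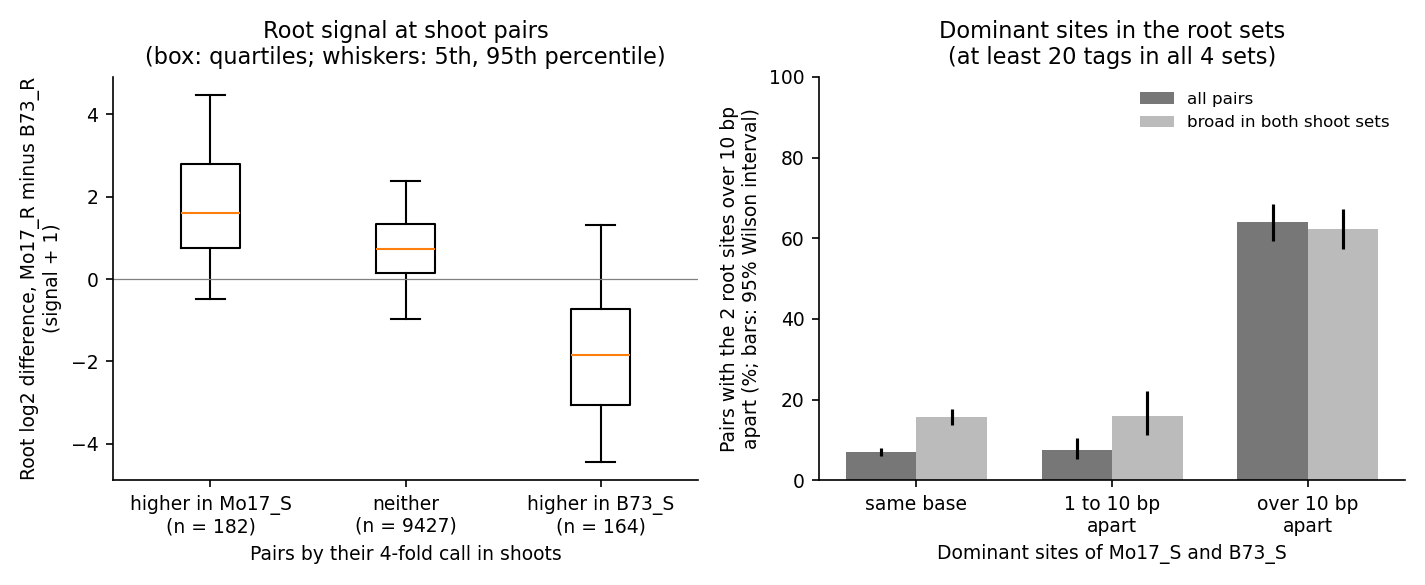
Left, root difference of Mo17_R minus B73_R on log2(signal + 1) at shoot pairs grouped by their call in shoots, with box lines at the quartiles and whiskers at the 5th and 95th percentiles; medians are 1.61 for pairs higher in Mo17_S and -1.84 for pairs higher in B73_S. Right, share of pairs whose dominant sites in the 2 root sets lie over 10 bp apart, by the distance in shoots, with 95% Wilson intervals; it is 64.0% where the shoot sites are over 10 bp apart and 6.96% where they are the same.

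Both shoot sets mostly began transcription at the same base. The dominant site was identical in 10406 of 15161 pairs (68.6%, 95% Wilson interval 67.9 to 69.4), 1 to 10 bp away in 13.8% and over 10 bp away in 17.5%. Agreement was higher where more tags stood behind the sites. With at least 100 tags in both sets, 86.4% of 2159 pairs shared the base (84.9 to 87.8) and 4.86% were over 10 bp apart. With at least 1000 tags, 93.9% of 198 pairs shared it (89.7 to 96.5), and 1 pair was over 10 bp apart. That pair, on chromosome 4, minus strand, had its dominant site at 165728910 in Mo17_S (4308 tags) and at 165728818 in B73_S (1962 tags).

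Sharp regions, which have most of their signal within 10 bp and so less room for a site to move, shared the base more often than broad ones. The same base dominated in 83.8% of 6312 pairs that were sharp in both sets and in 56.0% of 6541 pairs that were broad in both. Of the sharp pairs, 26 had dominant sites over 10 bp apart. With at least 100 tags in both sets, 78.4% of 691 broad pairs shared the base, and 12.3% were over 10 bp apart, against 33.6% of all broad pairs. Moved sites lay about as often on either side. Among pairs 1 to 10 bp apart, the Mo17_S site lay downstream in 1078 and upstream in 1017 (51.5% downstream, 49.3 to 53.6), and among pairs over 10 bp apart it lay downstream in 1300 and upstream in 1360 (48.9% downstream, 47.0 to 50.8).

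**Figure D4:**
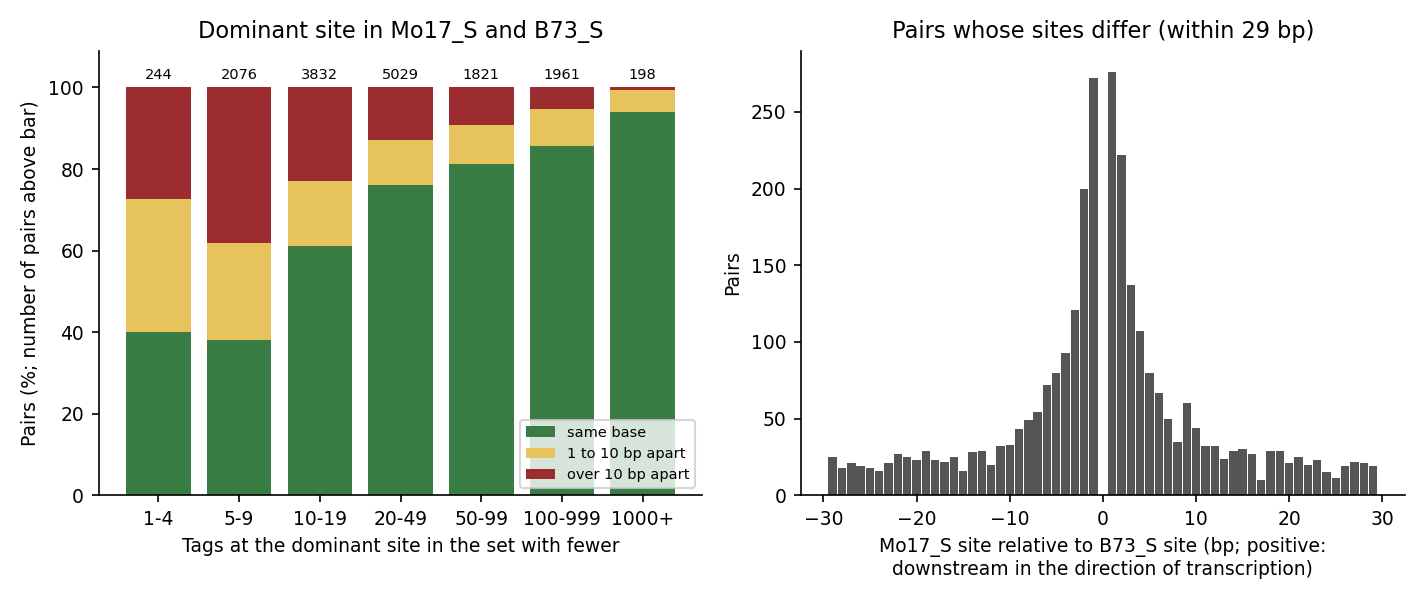
Left, share of pairs whose dominant site is the same base, 1 to 10 bp apart or over 10 bp apart, by tags at the dominant site in the set with fewer; the share with the same base reaches 93.9% at 1000 tags or more. Right, distance of the Mo17_S site from the B73_S site in the direction of transcription for pairs whose sites differ by up to 29 bp; the bars at 1 bp stand for 276 pairs downstream and 272 upstream.

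Pairs with a shift over 10 bp in shoots more often had distant sites in roots too, though mostly not at the same bases. With at least 20 tags in all 4 sets, 3867 pairs could be followed. Where the shoot sites were over 10 bp apart, the root sites of Mo17_R and B73_R were over 10 bp apart in 265 of 414 pairs (64.0%, 95% Wilson interval 59.3 to 68.5). Where the shoot sites were the same, this was so in 211 of 3030 (6.96%, 6.11 to 7.93). In pairs broad in both shoot sets, the root sites were over 10 bp apart in 62.3% of 361 with shoot sites over 10 bp apart and in 15.6% of 1199 with the same shoot site. Each root set used its own shoot namesake's base in 98 of the 414 pairs, and in 49 each used the other's. In a further 93 both root sets used 1 common base. For the 423 pairs 1 to 10 bp apart in shoots each root set used its own shoot namesake's base in 80 and the other's in 71.

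The widest shift among pairs with at least 100 tags in both sets lay in a region that was broad in each, 187 bp in Mo17_S and 181 bp in B73_S. There, on chromosome 4, plus strand, the dominant site was 212126625 in Mo17_S (151 tags) and 212126445 in B73_S (114 tags), 180 bp apart. Both root sets had their dominant site at 212126625. The next, on chromosome 8, plus strand, was 172 bp wide in Mo17_S and 3 bp in B73_S. Its dominant site was 173973277 in Mo17_S (262 tags) and 173973107 in B73_S (145 tags), 170 bp apart, and each root set used the base of its namesake, with 950 tags in Mo17_R and 30 in B73_R. The other 3 lay on minus strands. On chromosome 1 the sites were 147736316 in Mo17_S and 147736467 in B73_S, on chromosome 2 111836672 in Mo17_S and 111836542 in B73_S, and on chromosome 7 144966883 in Mo17_S and 144967010 in B73_S. In the last, Mo17_R used the B73_S base, with 324 tags.

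The width of start regions was nearly the same in both sets. Sharp clusters made up 54.7% of Mo17_S (95% Wilson interval 54.1 to 55.4) and 53.5% of B73_S (52.8 to 54.2), and they held 58.9% of the signal in Mo17_S and 58.0% in B73_S. Of the pairs, 6312 were sharp in both and 6541 broad in both, so 84.8% (84.2 to 85.3) kept their class. A further 1063 were sharp in Mo17_S alone and 1245 in B73_S alone. With at least 100 tags in both sets 114 were sharp in Mo17_S alone and 108 in B73_S alone. The median difference in width within pairs was 0 bp, and 40.0% of pairs had identical widths. The Mo17_S cluster was the wider in 32.9% of pairs and the B73_S cluster in 27.1%.

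The authors' shape score, which was 2 for each cluster of 1 position and lower for all others, had medians of 0.219 in Mo17_S and 0.333 in B73_S over all pairs. With at least 100 tags in both sets the medians were 0.509 in Mo17_S and 0.522 in B73_S, and Spearman's rho of the scores over those pairs was 0.896. Within pairs, however, the median score difference of Mo17_S minus B73_S was 0 over all pairs. It was -0.005 with at least 100 tags in both sets. The median share of a cluster's signal on its dominant base was 56.3% in Mo17_S and 57.8% in B73_S.

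**Figure D5:**
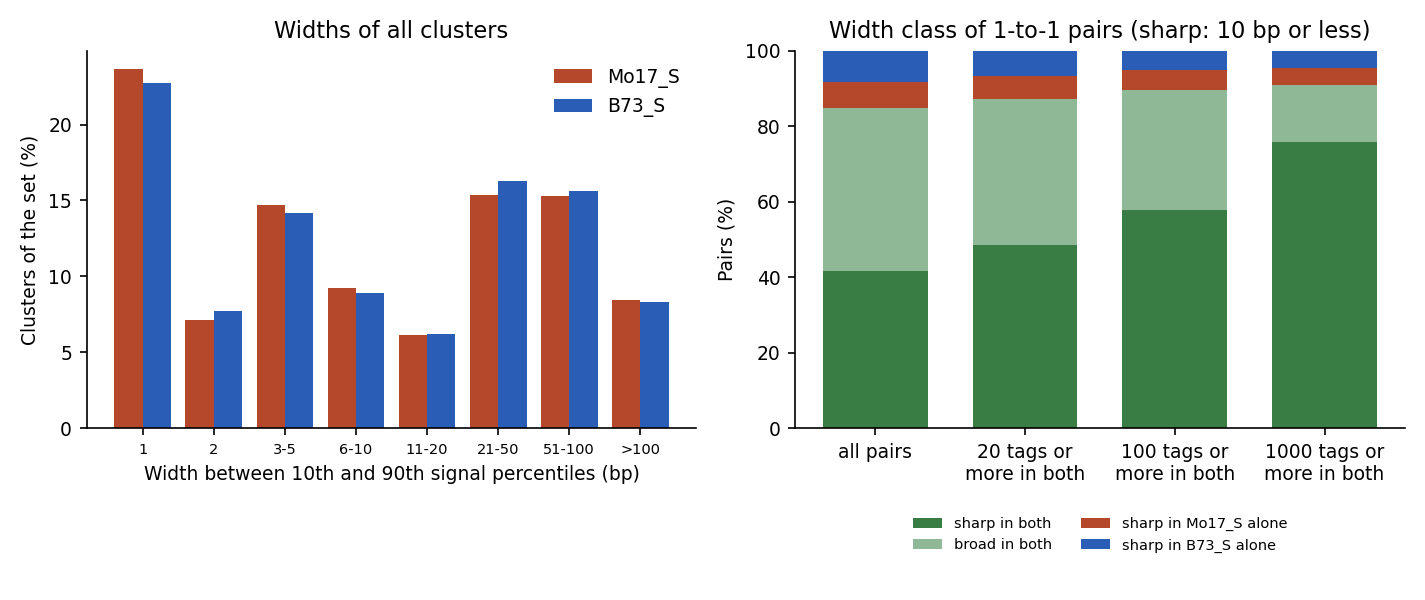
Left, share of all clusters of each set by width between the 10th and 90th percentiles of signal, in bins of unequal size. The bin of 1 bp held the largest share, 23.7% in Mo17_S and 22.8% in B73_S. Right, width class of pairs by the minimum number of tags at the dominant site in both sets; 84.8% of all pairs and 89.7% of pairs with at least 100 tags keep their class.

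Some regions with many tags differed in width while the dominant base stayed in place. At chr1:39118098:- the width was 129 bp in Mo17_S and 1 bp in B73_S, with 101 tags in Mo17_S and 372 in B73_S. In roots the widths were the reverse, 1 bp in Mo17_R and 129 bp in B73_R. At chr10:83469802:+, with 2941 tags in Mo17_S and 8491 in B73_S, the widths were 139 bp in Mo17_S and 7 bp in B73_S, and in roots 3 bp in Mo17_R and 139 bp in B73_R, with 4 tags in Mo17_R and 5 in B73_R. The other 3 regions with the largest excess of width in Mo17_S were chr8:173973277:+, described above for its shift, chr8:17395814:- (161 bp in Mo17_S and 17 bp in B73_S) and chr1:297458544:- (129 bp in Mo17_S and 2 bp in B73_S). In roots chr8:17395814:- was broad in both, 161 bp in Mo17_R and 172 bp in B73_R, and chr1:297458544:- was 2 bp wide in each. The whole shoot clusters at chr10:83469802:+ ran from 83469801 to 83469942 in Mo17_S and from 83469800 to 83469940 in B73_S. Those at chr1:297458544:- differed, with starts at 297458415 in Mo17_S and 297458535 in B73_S.

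In the other direction, chr1:13688157:- had widths of 6 bp in Mo17_S and 180 bp in B73_S, with 772 tags in Mo17_S and 304 in B73_S, and in roots 4 bp in Mo17_R and 69 bp in B73_R. At chr1:7453561:- the widths were 1 bp in Mo17_S and 160 bp in B73_S, and in roots 1 bp in Mo17_R and 39 bp in B73_R. At chr2:43251628:- they were 1 bp in Mo17_S and 146 bp in B73_S, and in roots 1 bp in Mo17_R and 29 bp in B73_R. The other 2 were chr7:157914357:- (5 bp in Mo17_S and 163 bp in B73_S) and chr7:149951983:- (42 bp in Mo17_S and 184 bp in B73_S). Their root widths were 3 bp in Mo17_R and 163 bp in B73_R for chr7:157914357:-, and 184 bp in Mo17_R and 143 bp in B73_R for chr7:149951983:-, with at most 7 tags in each root set. In all 5 of these the dominant base was the same in both shoot sets. The whole clusters at chr7:149951983:- ran from 149951983 to 149952166 in both shoot sets. Those at chr7:157914357:- differed, with ends at 157914361 in Mo17_S and 157914519 in B73_S.

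Part of each set lay in dense runs, defined as at least 10 clusters of a set with neighbouring dominant sites at most 2000 bp apart. Mo17_S had 108 runs with 21.3% of its clusters, and B73_S had 97 runs with 20.2%. In each set 88 of these overlapped a run of the other set, and 20 runs of Mo17_S and 9 of B73_S had no counterpart. The largest run of Mo17_S held 273 clusters, between 165543583 and 165550289 on chromosome 3, and the B73_S run at that place held 199. Pairs inside runs made up 18.7% of all pairs, 4.92% of those higher in Mo17_S and 6.67% of those higher in B73_S.

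The comparisons of root with shoot share Mo17_S or B73_S with the comparison of the shoots, so their values are only set side by side. Pairs at least 4-fold apart in signal made up 3.13% between Mo17_S and B73_S, 11.6% between Mo17_R and B73_R, 15.7% between Mo17_R and Mo17_S, and 19.8% between B73_R and B73_S. The dominant site was identical in 68.6% of pairs between Mo17_S and B73_S, 46.8% between Mo17_R and B73_R, 68.4% between Mo17_R and Mo17_S, and 49.2% between B73_R and B73_S. With at least 100 tags in both sets these shares were 86.4%, 72.6%, 90.1% and 73.8%. The lower values all involve B73_R, the set with the fewest recovered tags (1267305) and with 16 PCR cycles, and the differences between comparisons were not tested.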

How the data were processed

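Per the labels' protocols, CAGE tags of 27 bp were cut by EcoP15I from cDNA that had been primed at random on 5 µg of total RNA and selected by its cap. The submitters' processing notes name Bowtie2 2.0.4. Sources used here give neither the build nor how clusters were called, nor which libraries each set pools. The deposited signal, for whole clusters and for dominant sites, was scaled to a power law by the authors. The deposited shape score has no name in the files. Each dominant-site signal is a set's unit multiplied by a power of its tag count, and solving for that count gave whole numbers within 0.01 tags at 100% of sites. Without molecular identifiers, PCR copies count as tags. Starts are printed 1-based.

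Same-strand clusters sharing 1 bp or more were joined (bedtools 2.31.1), and 1-to-1 pairs were kept. Calls needed a 4-fold difference on log2(signal + 1) and a higher signal of at least 1. Named positions are the 5 strongest clusters of each set, the 5 strongest without a partner, the 5 largest differences in each direction, the 5 widest shifts and the 5 largest width differences in each direction with at least 100 tags in both sets, and the 5 highest and lowest 10 Mb windows. After the data had been seen, the stretches without partners, the pair over 10 bp apart with at least 1000 tags, the dominant sites in roots, the root values at shoot signals of at least 5, the median-centred signal and tags without the 2 strongest sites were added. Members and rules were chosen with earlier results of these data known. Pairing, calls and tag recovery were tested on simulated data in Python 3.11.15 (numpy 2.4.6; pandas 2.3.3; scipy 1.17.1), and figures were drawn with matplotlib 3.10.9. The simulated clusters kept the bounds of B73_S, and the simulated tags followed the same power law that was used to recover them. Pairs with differing bounds and planted changes near 4-fold were therefore not tried. Promoter sequence and genes were not analysed here.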

Additional observations from a re-analysis of the deposited data

Results flagged for a closer look

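At 4 start regions the line difference ran opposite ways in the tissues, each at least 4-fold lower in Mo17_S than in B73_S and at least 4-fold higher in Mo17_R than in B73_R. They are 4 of the 164 pairs higher in B73_S that could be followed in roots, or 2.44%, against 10.1% of all pairs called higher in Mo17_R. They are placed by the B73_S site. At chr2:41935543:- the log2 difference was -3.80 in shoots (signal 16.8 in Mo17_S and 247.2 in B73_S) and 2.22 in roots. At chr1:147170828:+ it was -2.18 in shoots, with 10 tags in Mo17_S and 48 in B73_S, and 3.66 in roots, with 71 tags in Mo17_R and 2 in B73_R. At chr5:67537457:+ it was -2.12 in shoots and 2.15 in roots, and at chr9:1428505:- it was -2.02 in shoots and 2.79 in roots. With the overall root median of 0.73 taken off, the root differences at chr2:41935543:- and chr5:67537457:+ were 1.49 and 1.42, below 4-fold, and on tags per 1000000 they were 1.65 and 1.87. Those at chr1:147170828:+ and chr9:1428505:- stayed above it, at 2.93 and 2.06 with the median off and at 3.35 and 2.81 on tags. Each set gives 1 value, and the difference between tissues was not tested.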

How the results depend on the processing

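Shares of clusters with a partner were 47.0% in Mo17_S and 53.9% in B73_S at an overlap of 50% of both clusters, 86.6% in Mo17_S and 88.7% in B73_S at a signal of at least 5, and 80.1% in B73_S outside dense runs. Shoot-only clusters found in the root set of their name made up 61.1% for Mo17_S and 50.4% for B73_S over all clusters, 65.7% for Mo17_S and 65.8% for B73_S at a signal of at least 5, and 70.3% for Mo17_S and 58.3% for B73_S outside dense runs. Pairs higher in Mo17_S numbered 2528 at 2-fold, 32 at 8-fold, 123 where both signals were 5 or more, 125 with an overlap of 50%, 148 after quantile normalization, 136 after centring and 434 with a pseudocount of 0.1. Pairs higher in B73_S numbered 285 after quantile normalization, 254 with a pseudocount of 0.1, 297 after centring, 893 at 2-fold, 64 at 8-fold, 96 where both signals were 5 or more, 86 with an overlap of 50%, 416 on tags per 1000000 and 396 on tags without the 2 strongest sites. The order of the directions therefore depends on the scale. The median log2 difference was -0.0022 on tags per 1000000, 0.0534 on tags without the 2 strongest sites, 0.32 with a pseudocount of 0.1 and 0.33 outside dense runs. The dominant site was the same in 79.6% of pairs at 20 tags, 86.4% at 100 tags and 64.7% outside dense runs, and over 10 bp apart in 10.2%, 4.86% and 21.1%. The width class was kept in 84.1% with sharp at 20 bp, 87.4% by score, 87.2% at 20 tags and 82.0% outside dense runs. At 20 tags 551 pairs were sharp in Mo17_S alone and 604 in B73_S alone. The median score difference within pairs was 0 over all pairs, 0 at 20 tags and -0.055 outside dense runs. On tags the root median for pairs higher in Mo17_S was 1.16. All 10 pairs named for their difference in signal kept their direction and stayed beyond 4-fold on each scale tried. The cause of these changes was not tested. No paired analysis was possible because the sets carry no library or replicate, and no library could be left out for the same reason.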
